A study of Danio rerio with 6 samples.

Results

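Cilia and axoneme genes were taken here as the genes whose symbol opens with ift, bbs, tekt, dnah, dnai, dnaaf, cfap or rsph followed by a digit, which gave 68 of the 36155 gene rows. They fell into 7 families: 12 IFT genes of the intraflagellar transport trains, 8 BBS genes, 16 dynein arm genes, 5 dynein assembly factors, 18 CFAP genes, 5 RSPH genes of the radial spokes and 4 tektins. RNA-seq had been done on *prpf31*-/- zebrafish embryos and their wild-type siblings (*prpf31*+/+) at 36 hours post fertilization (hpf), with 3 libraries in each group. Both groups were of strain AB* and came from *prpf31*+/- parents. The *prpf31*-/- embryos belong to a knockout line made with CRISPR/Cas9. Heads were cut off for genotyping, and RNA came from the remaining tails of embryos of like genotype, with the aorta-gonad-mesonephros region and the caudal hematopoietic tissue, so that each library is a pool of animals and of all tissues of the trunk and tail. The study's methods state that experiments were repeated independently, but not whether each RNA-seq replicate was its own clutch, so the p-values measure the spread between these libraries, which may be technical.

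A cilium is a microtubule axoneme that grows from a basal body under the cell membrane. Its parts are carried in and out by intraflagellar transport trains, on which kinesin-2 moves outward and dynein-2 moves inward, and the BBSome, a complex of BBS proteins, rides these trains and sorts membrane proteins. Most cells carry a primary cilium, which lacks dynein arms. Motile cilia, which in a zebrafish tail line the pronephric tubules and the central canal of the spinal cord, add outer and inner dynein arms, radial spokes and further axonemal proteins, and their genes are switched on by Foxj1 and Rfx factors. Tektins are filament proteins along the doublet microtubules. Prpf31 is a component of the U4/U6·U5 tri-snRNP of the spliceosome, and in humans mutations of its gene cause retinitis pigmentosa, a disease of the photoreceptor, whose outer segment is a modified cilium.

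The 6 libraries held 21809870 to 23789933 counts. *prpf31* itself, which lies on chromosome 16 (GRCz11, chr16:32082359-32090672), was at 36.8, 38.2 and 38.4 CPM (counts scaled to library size and TMM factor) in siblings and at 23.4, 25.2 and 23.0 CPM in mutants, so it fell by 0.66 on the log2 scale (SE 0.0842, adjusted p = 0.00104). Mitochondrial genes took 4.19% to 4.35% of the counts in siblings and 4.78% to 5.62% in mutants, without overlap. Muscle markers summed to 66135 to 78060 CPM, as a tail would give. A list of 25 head, eye and ear genes still summed to 135 to 206 CPM in siblings and 149 to 187 CPM in mutants, and the otolith gene *stm* was at 36.6 to 58.7 CPM in siblings and 45.7 to 77.8 CPM in mutants, so transcripts of the otic region were present in both groups.

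Of the 68 cilia and axoneme genes, 4 (*bbs4*, *bbs10*, *cfap52* and *ift88*) were listed without a count in any library, as were 6001 genes of the file. A count of 0 allows up to 3 counts, or 0.129 to 0.148 CPM, for counting error only. This limit does not cover reads lost through annotation or assignment, so these genes are not shown to be silent in the tail. Another 9 genes had counts too low for the filter, namely *cfap70*, *cfap157*, *dnaaf3*, *dnah3*, *dnah9*, *dnah12*, *dnai1.1*, *dnai2a* and the smaller of the annotated *dnah11* genes. The remaining 55 genes were tested. Passing the filter depended on the counts themselves, so these 55 do not stand for all members.

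Among these 55 genes, 4 rose in *prpf31*-/- tails (*tekt3*, *ift81*, *ift27* and *bbs5*), 3 fell (*ift80*, *ift52* and *bbs9*) and 48 did not pass the test (edgeR quasi-likelihood test, Benjamini-Hochberg adjusted p below 0.05 over all 21876 genes tested). The 7 calls are 12.7% of the tested members, close to the 10.1% called among all tested genes, of which 5.58% were higher and 4.49% lower. All 3 mutant libraries lay above all 3 sibling libraries for 7 of the 55 genes (12.7%) and below them for 12 (21.8%), against 15.2% and 15.4% of all tested genes. The median log2 fold change was -0.11 over the members and -0.00 over all genes. With this filter, the class as a whole was thus called at about the share of all genes, and its calls lay mostly in the transport families. The IFT and BBS genes, which all ciliated cells use, had 6 calls among 17 tested genes (35.3%). The remaining families, of which most products belong to motile axonemes, had 1 call among 38 (2.63%), which was *tekt3*. Counts also differed between these groups, with a median of 160 counts per library for the IFT and BBS genes and 40.3 for the rest. With a filter of 50 counts in 3 libraries, 5 of 14 IFT and BBS genes and 1 of 17 others were called, against 13.5% of all genes kept by that filter. The members as a whole were then called at 19.4%. With limma on genes of at least 1 FPKM in 3 libraries, 24% of members were called. The share of all genes was then 11.1% with log2(FPKM + 1) and 10.7% with log2(FPKM + 0.1). The closeness of the class to all genes thus depended on the filter. In bulk tissue, fewer ciliated cells and less RNA per cell cannot be told apart.

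**Figure D1:**
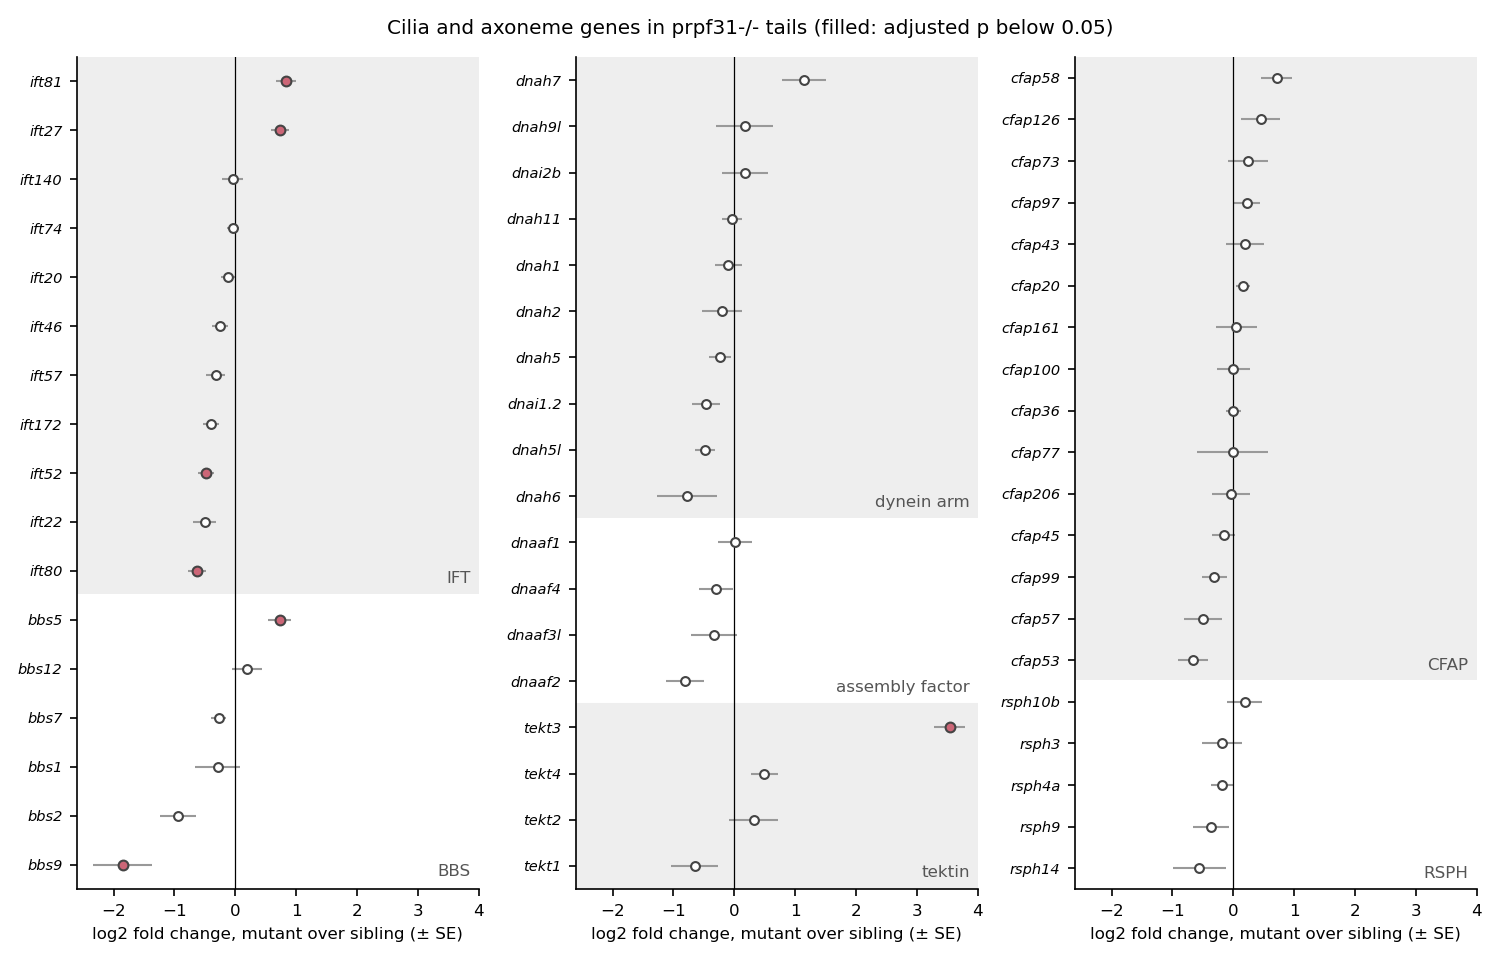
Log2 fold change of mutant over sibling tails (x axis) with its standard error for the 55 tested cilia and axoneme genes (y axis), grouped by family, 3 libraries per group. Filled points are the 7 genes with an adjusted p below 0.05; *tekt3* stands at 3.54, and all other genes lie between -1.85 and 1.15.

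Levels per length were compared in FPKM. *cfap20*, which encodes a conserved axonemal and centriolar protein, had the highest level at 21.8 FPKM in siblings and 24.4 FPKM in mutants, ahead of *ift74* at 16.3 and 15.8 FPKM. The family medians in siblings were 5.11 FPKM for the tested IFT genes, 1.25 for BBS, 0.91 for RSPH, 0.742 for assembly factors, 0.737 for CFAP, 0.455 for tektins and 0.364 for dynein arms. IFT genes were thus the most expressed family, and dynein heavy chains, with a median of 0.179 FPKM, the least. Across the 55 tested genes, Spearman's rho between the log2 fold change and the exonic length was 0.04, with the genomic span -0.10 and with the mean log2 CPM 0.02, all computed on the same libraries. Over all 21876 tested genes these values were -0.03, -0.07 and 0.12.

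**Figure D2:**
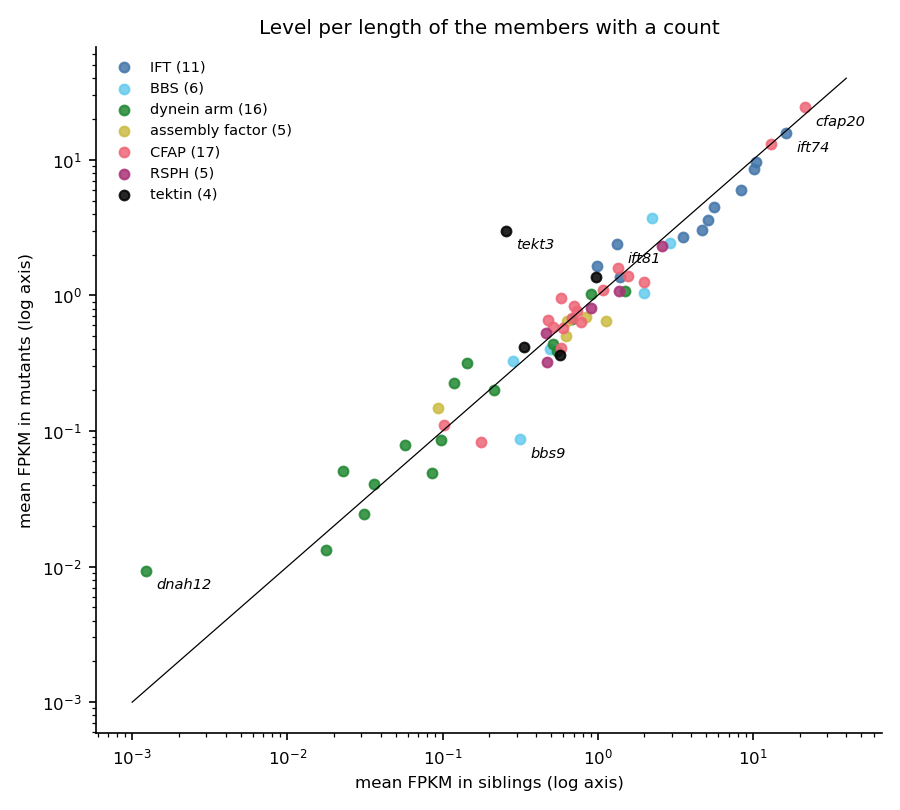
Mean FPKM in siblings (x axis, log scale) against mutants (y axis, log scale) for the 64 members with a count, coloured by family with the number of genes in brackets; the line marks equal levels. *tekt3* lies far above the line at 0.256 and 3.01 FPKM, and *bbs9* lies below it at 0.316 and 0.087 FPKM.

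Tektins included the member with the largest change. *tekt3* (ENSDARG00000045038, chr12:37327867-37343858, minus strand), which encodes a tektin of ciliary and flagellar doublets, was covered by 11, 12 and 8 counts in siblings and by 111, 117 and 130 counts in mutants. Scaled, this was 0.48, 0.539 and 0.36 CPM in siblings and 5.46, 5.13 and 5.58 CPM in mutants, or 0.46 ± 0.0914 against 5.39 ± 0.236 CPM (SD, n = 3). Every mutant library was far above every sibling library, and per length the gene went from the lowest of the 4 tektins (0.256 FPKM) to the highest (3.01 FPKM). The rise was 3.54 on the log2 scale (SE 0.252, adjusted p = 1.9e-05), which is 11.6-fold. It passed under all 15 alternatives, with values of 3.39 to 3.66 when any library was left out, and 1.67 on the log2(FPKM + 1) scale. No annotated gene overlaps *tekt3*.

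The other tektins did not pass the test. *tekt4* was at 2.05, 2.29 and 2.2 CPM in siblings and 3.54, 2.76 and 2.88 CPM in mutants, with no overlap between the groups but an adjusted p of 0.206 (log2 fold change 0.49, SE 0.221). *tekt1* was at 0.785, 1.08 and 0.629 CPM in siblings and 0.591, 0.394 and 0.601 CPM in mutants, or -0.65 on the log2 scale (SE 0.389, adjusted p = 0.344). *tekt2* overlapped between groups (0.32, SE 0.399, adjusted p = 0.683). The standard errors of *tekt1* and *tekt2*, which had 9 to 24 counts per library, leave changes of that size undetectable at this depth. The summed tektin level was 3.75, 4.58 and 3.78 CPM in siblings and 10.2, 9.24 and 9.61 CPM in mutants, and most of this gap was *tekt3*.

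**Figure D3:**
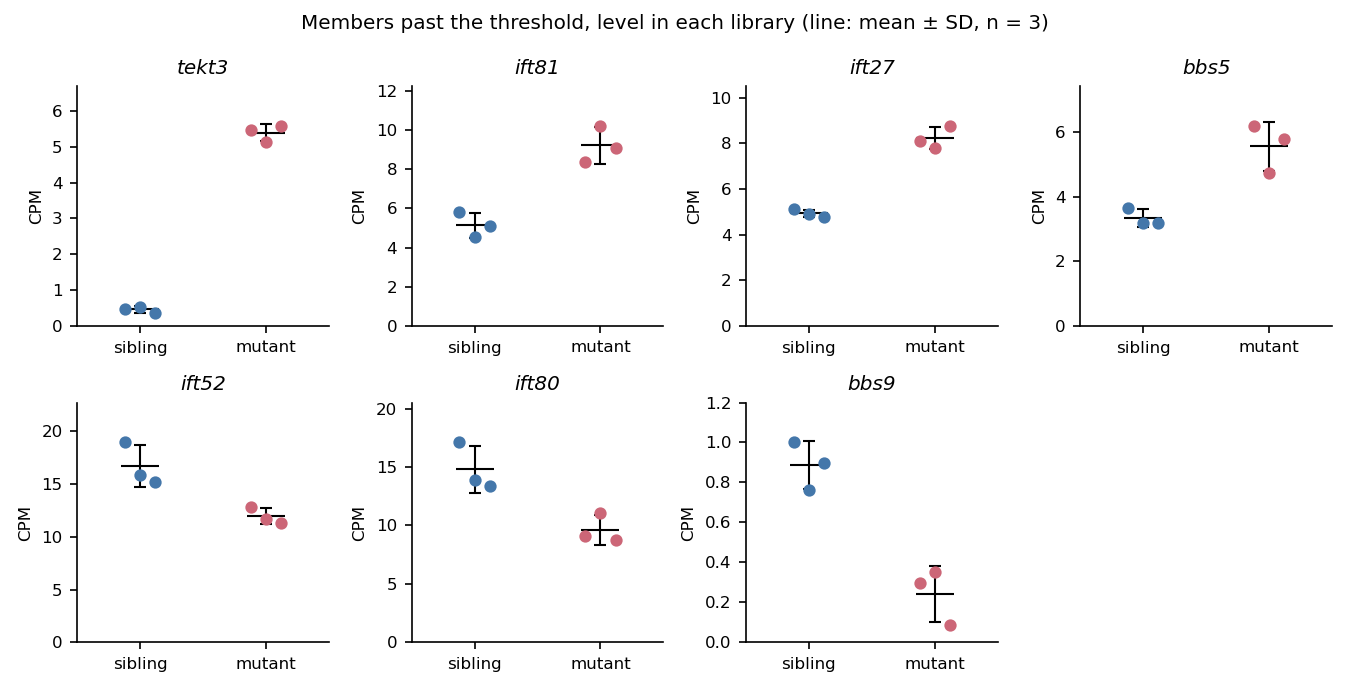
Level in CPM (y axis, from 0) of the 7 members past the threshold in each of the 3 sibling and 3 mutant libraries; the bars give the mean and SD. In each panel the groups do not overlap, and the *tekt3* libraries lie at 0.36 to 0.539 CPM in siblings and 5.13 to 5.58 CPM in mutants.

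The intraflagellar transport genes moved in both directions. Of 12 IFT genes, 11 were tested, of which 2 rose, 2 fell and 7 did not pass (36.4% called, against 10.1% of all tested genes). Their median log2 fold change was -0.25, and 9 of the 11 values were below 0. Only *ift140*, of the retrograde IFT-A complex, lies outside IFT-B, the complex that makes up the anterograde core of the train.

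*ift81* (ENSDARG00000007444, chr8:11642070-11681559, plus strand) rose. Its product pairs with Ift74, and the human proteins together bind tubulin as cargo. It was at 5.80, 4.54 and 5.08 CPM in siblings and 8.37, 10.2 and 9.06 CPM in mutants, that is 0.84 higher on the log2 scale (SE 0.164, adjusted p = 0.0113). All mutant libraries were above all sibling libraries. *ift74*, by contrast, was at 31.7, 25.5 and 29.0 CPM in siblings and 27.4, 28.4 and 27.9 CPM in mutants, with overlap (log2 fold change -0.04, SE 0.0997, adjusted p = 0.843). Whether the partners differed from each other in response was not tested.

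*ift27* (ENSDARG00000099279, scaffold KN149779.1:7696-14269, minus strand) encodes a small GTPase-like subunit needed in mouse for the exit of the BBSome from cilia. It was at 5.11, 4.90 and 4.77 CPM in siblings and 8.12, 7.80 and 8.76 CPM in mutants, or 0.74 higher on the log2 scale (SE 0.151, adjusted p = 0.0136). The groups were well apart. Its locus overlaps *cacng2b* on the opposite strand, and as the library kit does not mark strand, reads of the shared stretch cannot be told apart; the value of *cacng2b* itself was -0.27 (adjusted p = 0.595). A small heat shock family gene, *hspb11*, was matched by symbol alone to the binding partner of human IFT27. Its exonic length and genomic span are both 1042 bases, and whether it encodes that IFT subunit was not tested. It rose from 20.1, 23.1 and 18.8 CPM to 36.8, 30.1 and 33.5 CPM (log2 fold change 0.70, SE 0.113, adjusted p = 0.00442). The calls of *ift81* and *ift27* were lost without sibling replicate 2 (adjusted p = 0.0515 and 0.0525) and without mutant replicate 3 (adjusted p = 0.0507 and 0.077).

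*ift80* and *ift52* fell. *ift80* (ENSDARG00000038879, chr15:1494493-1534258, minus strand), a peripheral IFT-B subunit mutated in human skeletal ciliopathies, was at 17.1, 13.9 and 13.4 CPM in siblings and 9.06, 11.1 and 8.76 CPM in mutants, or -0.62 on the log2 scale (SE 0.148, adjusted p = 0.0279). *ift52* (ENSDARG00000045025, chr11:1533097-1546015, plus strand), a subunit of the IFT-B core, was at 18.9, 15.8 and 15.2 CPM in siblings and 12.8, 11.7 and 11.3 CPM in mutants, or -0.48 on the log2 scale (SE 0.125, adjusted p = 0.0378). For each gene all mutant libraries were below all sibling libraries, with sibling replicate 1 the highest of the 6. The *ift80* call was lost without sibling replicate 1 or 2 or mutant replicate 1 or 3 (adjusted p = 0.124, 0.0672, 0.0507 and 0.128). The *ift52* call was lost without sibling replicate 1 or 2 or mutant replicate 2 or 3 (adjusted p = 0.159, 0.0867, 0.078 and 0.156).

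All mutant libraries lay below all sibling libraries for 5 of the 11 tested IFT genes (45.5%) and above them for 2 (18.2%). Among all tested genes these shares were 15.4% and 15.2%. Of the IFT genes with all mutants below, 3 did not pass the test. These were *ift172*, the largest IFT-B subunit (log2 fold change -0.40, SE 0.137, adjusted p = 0.0988), *ift22* (-0.50, SE 0.191, adjusted p = 0.133) and *ift57* (-0.32, SE 0.157, adjusted p = 0.243). *ift172* was at 22.4, 18.7 and 19.6 CPM in siblings and 13.5, 18.3 and 14.2 CPM in mutants, with mutant replicate 2 just under the lowest sibling. Without that library its adjusted p was 0.0293. *ift46*, *ift20* and *ift140* overlapped between groups, with log2 fold changes of -0.25, -0.11 and -0.04 and standard errors of 0.124, 0.124 and 0.176.

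The trains also hold subunits whose symbols do not open with ift. Assigned to complexes by common knowledge, with their values already seen, the set used comprised 4 IFT-A, 15 IFT-B, 5 dynein-2 and 7 kinesin-2 genes. It does not hold every known subunit, as *ift43* and *ift122* of IFT-A are absent. In IFT-A, 2 of these 4 genes fell and none rose (50% called, against 10.1% of all tested genes). *ttc21b* went from 13.0, 12.1 and 11 CPM to 7.43, 8.24 and 8.15 CPM (log2 fold change -0.60, SE 0.133, adjusted p = 0.0206), and *wdr19* went from 4.67, 2.29 and 3.33 CPM to 1.77, 1.31 and 1.76 CPM (-1.09, SE 0.301, adjusted p = 0.0486). For each gene the groups were fully apart. In IFT-B, 3 of 14 tested genes rose and 3 fell (42.9% called). Those that rose were *ift81*, *ift27* and *hspb11*, the last of which was placed in IFT-B by its symbol alone. The third that fell was *ttc26* (-0.46, SE 0.122, adjusted p = 0.0415).

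Of the retrograde motor dynein-2, the intermediate chain gene *wdr34* fell from 3.45, 2.88 and 2.88 CPM to 1.43, 0.832 and 0.73 CPM, the largest change among the tested genes of these 4 complexes (log2 fold change -1.63, SE 0.304, adjusted p = 0.00897). The heavy chain gene *dync2h1*, listed in the files as CABZ01072607.1, fell from 12.8, 9.30 and 10.6 CPM to 6.30, 7.93 and 7.25 CPM (-0.60, SE 0.166, adjusted p = 0.0478). The other intermediate chain gene, *wdr60*, overlapped between groups (0.12, SE 0.149, adjusted p = 0.666). Of the anterograde motor kinesin-2, 0 of 7 genes were called by edgeR or DESeq2, with 2 at an unadjusted p below 0.05 and log2 fold changes from -0.67 (*kif17*) to 0.65 (*kif3a*). The calls of *hspb11* and *wdr34* held without any library, that of *ttc21b* in 3 of the 6 fits that each left out a library (adjusted p up to 0.0931) and that of *wdr19* in 1 (up to 0.201), whereas those of *ttc26* and *dync2h1* were lost in all 6 (0.059 to 0.148 and 0.0514 to 0.188). A wider list held 25 transport motors, adaptors and effectors under other names, and was chosen with earlier results of these data known. Of 24 tested, 1 was higher (*hspb11*, listed by symbol alone) and 6 were lower (29.2% called, against 10.1% of all tested genes). The list's median log2 fold change was -0.27. The list also held *wdpcp*, a planar cell polarity effector, which fell (-0.98, SE 0.231, adjusted p = 0.0264), a call kept in 2 of 6 fits without a library (up to 0.106).

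**Figure D4:**
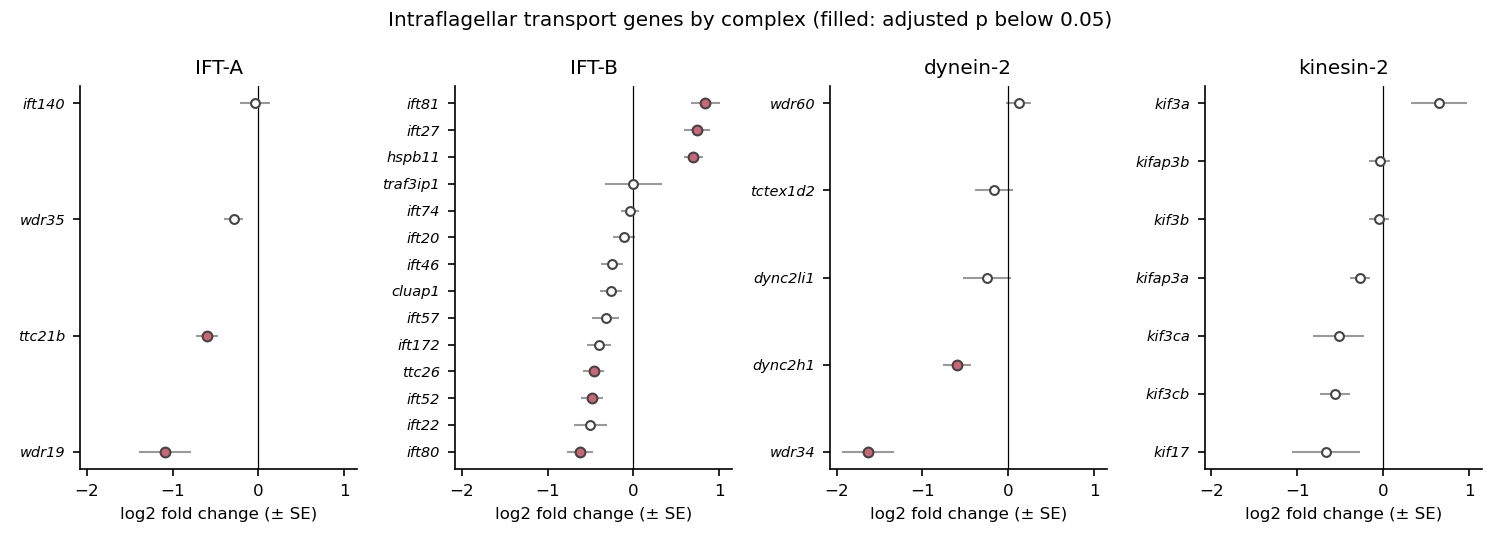
Log2 fold change of mutant over sibling tails (x axis) with its standard error for the tested transport genes (y axis), split into the IFT-A, IFT-B, dynein-2 and kinesin-2 complexes; filled points have an adjusted p below 0.05. IFT-A holds 2 genes lower and none higher, IFT-B 3 in each direction, dynein-2 2 lower, and kinesin-2 none. Among the higher genes, *hspb11* was placed in IFT-B by its symbol alone.

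The BBS genes gave 1 call in each direction among 6 tested genes of 8 (33.3% called, against 10.1% of all tested genes). Their median log2 fold change was -0.28, and 4 genes had an unadjusted p below 0.05. *bbs5* (ENSDARG00000039827, chr9:48284606-48296469, minus strand), whose product holds the lipid-binding domains of the BBSome, rose from 3.67, 3.19 and 3.19 CPM to 6.20, 4.73 and 5.79 CPM (log2 fold change 0.73, SE 0.189, adjusted p = 0.037). *bbs9* (ENSDARG00000079217, chr16:6957582-7062949, plus strand), a scaffold subunit of the BBSome, fell from 23, 17 and 20 counts to 6, 8 and 2 counts, that is from 1.00, 0.764 and 0.899 CPM to 0.295, 0.350 and 0.0858 CPM (log2 fold change -1.85, SE 0.488, adjusted p = 0.0401). Neither gene overlapped between groups, but the mutant level of *bbs9* rests on 16 counts in all, of which mutant replicate 3 gave only 2.

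Both BBS calls were kept in 1 of the 6 fits that each left out a library. In these fits the log2 fold change stayed at 0.65 to 0.84 for *bbs5* and at -2.23 to -1.44 for *bbs9*. Whether the calls were lost to particular libraries or to the smaller number of libraries was not tested. *bbs5* was called without mutant replicate 2 (adjusted p = 0.03) but not without any other library (0.0798 to 0.138), and *bbs9* likewise (0.0479 without mutant replicate 2, otherwise 0.0606 to 0.146). With DESeq2 *bbs9* had an adjusted p of 0.0635. The *bbs9* locus lies on the chromosome of *prpf31* (chr16:32082359-32090672), where 23.6% of 891 tested genes were called. Beside it on chromosome 16, *arhgef2* and *pmvk* also fell (log2 fold changes -2.77 and -2.91, adjusted p = 0.00106 and 0.0253), and *eaf1*, 2037 bases away, had a value of -1.20 (adjusted p = 0.327). *pmvk* had only 16, 18 and 30 counts in siblings and 5, 0 and 3 in mutants. On the other side, *si:ch73-341k19.1* fell (-0.94, adjusted p = 0.0386), whereas *bmper* (0.28, adjusted p = 0.13) and *nt5c3a* (0.19, adjusted p = 0.228) had all mutants above all siblings without passing. The other tested members on chromosome 16, *dnah5* (-0.23, adjusted p = 0.463) and the larger *dnah11* gene (-0.04, adjusted p = 0.905), were not called. The part of linkage to the mutated locus in the *bbs9* value was not tested.

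*bbs2*, another BBSome subunit, was at 6.07, 4.67 and 4.90 CPM in siblings and 2.22, 4.07 and 1.85 CPM in mutants. All mutant libraries were below the siblings, mutant replicate 2 by the least, and the log2 fold change of -0.94 (SE 0.291) had an adjusted p of 0.0723. DESeq2 called it (adjusted p = 0.0331), as did edgeR without mutant replicate 2 (0.00891). *bbs7*, at 14.2, 13.2 and 13.5 CPM in siblings and 11.4, 10.2 and 12.2 CPM in mutants, was not called (-0.27, SE 0.122, adjusted p = 0.2), and *bbs1* and the chaperonin-like gene *bbs12* overlapped between groups. Of 14 genes for BBSome partners under other names, 12 were tested and 0 called by edgeR or DESeq2, with 3 at an unadjusted p below 0.05 and a median log2 fold change of 0.02.

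Dynein arm genes gave no call by edgeR among 10 tested of 16, with 2 at an unadjusted p below 0.05 and a median log2 fold change of -0.15; DESeq2 called 1. That gene was *dnah7*, an inner arm heavy chain, named here for that call after its values were seen. Its libraries had 50, 32 and 38 counts in siblings and 39, 101 and 127 in mutants, or 2.18, 1.44 and 1.71 CPM against 1.92, 4.42 and 5.45 CPM. Mutant replicate 1 lay within the siblings, and the other mutant libraries lay above them. Its value of 1.15 on the log2 scale (SE 0.364) had an adjusted p of 0.0771 with edgeR and 0.0314 with DESeq2, and was 1.47 without mutant replicate 1 (adjusted p = 0.00659). *dnah7* overlaps *slc39a10* on the opposite strand, whose value was 0.14 (adjusted p = 0.375).

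The heavy chains with the most counts showed no called change. The larger *dnah11* gene (ENSDARG00000094282, chromosome 16), of the outer arm, was at 8.12, 6.29 and 7.78 CPM in siblings and 7.58, 7.23 and 6.74 CPM in mutants (log2 fold change -0.04, SE 0.16), although it shares its strand and part of its locus with a smaller annotated *dnah11* gene, so that reads may be split or lost between them. *dnah5l*, a paralog of the outer arm gene *dnah5*, was at 6.72, 8.85 and 7.46 CPM in siblings and 5.27, 5.21 and 5.97 CPM in mutants, without overlap (-0.48, SE 0.168, adjusted p = 0.104). *dnah5* itself had a value of -0.23 (SE 0.178, adjusted p = 0.463). The intermediate chain genes *dnai1.2* and *dnai2b*, also with near copies in the genome, overlapped between groups at log2 fold changes of -0.46 and 0.17.

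Dynein arms are preassembled in the cytoplasm by the DNAAF proteins. Of 5 assembly factor genes, 4 were tested and 0 called by edgeR or DESeq2; *dnaaf2* alone had an unadjusted p below 0.05. It was at 2.53, 1.57 and 1.71 CPM in siblings and 1.38, 0.964 and 0.987 CPM in mutants, all mutants below all siblings (log2 fold change -0.81, SE 0.312, adjusted p = 0.139). The whole of its locus lies inside *ppp1r21* on the opposite strand (0.09, adjusted p = 0.739), so its counts may hold reads of that gene. *dnaaf4* overlapped between groups (-0.30, SE 0.281). *dnaaf3* and *dnaaf3l*, near copies on chromosome 24, had 2 to 7 and 13 to 25 counts per library.

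Among 24 further genes for arm docking, assembly and light chains, 3 of 18 tested rose and none fell by edgeR (16.7% called, against 10.1% of all tested genes), with a median log2 fold change of -0.17. *ruvbl1*, an ATPase of the R2TP chaperone that takes part in arm assembly and also in chromatin remodelling and snoRNP assembly in every cell, rose from 64.4, 66.5 and 62.6 CPM to 270.0, 231.0 and 265.0 CPM (log2 fold change 1.98, SE 0.0831, adjusted p = 4.2e-07). The groups were far apart. The dynein arm docking genes *ccdc103* (0.84, SE 0.203, adjusted p = 0.0286) and *ccdc114* (0.80, SE 0.213, adjusted p = 0.0415) also rose, from 2.66, 3.23 and 3.24 to 6.35, 4.51 and 5.54 CPM and from 3.10, 3.46 and 3.78 to 4.63, 7.36 and 6.01 CPM. The *ruvbl1* call held without any library, and those of *ccdc103* and *ccdc114* in 1 of 6 fits each (adjusted p up to 0.114 and 0.15).

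None of 15 tested CFAP genes was called by edgeR or DESeq2, 2 had an unadjusted p below 0.05, and their median log2 fold change was 0.00. *cfap20* was at 16.3, 15.5 and 16.8 CPM in siblings and 19.8, 16.1 and 18.4 CPM in mutants (0.16, SE 0.112), and *cfap36* at 14.7, 12.3 and 14.5 against 14.3, 14.0 and 13.2 CPM (0.00, SE 0.119). These are the best measured CFAP genes, and their groups overlapped. The genes with an unadjusted p below 0.05 had values of opposite sign. *cfap58*, of sperm flagella in mouse, was at 1.66, 1.62 and 2.34 CPM in siblings and 3.05, 3.50 and 2.62 CPM in mutants (0.71, SE 0.251, adjusted p = 0.11), whereas *cfap53*, needed for left-right patterning cilia, was at 3.01, 2.88 and 4.45 against 1.92, 2.23 and 2.36 CPM (-0.66, SE 0.247, adjusted p = 0.127).

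The 5 RSPH genes, which encode the spokes between the doublets and the central pair, all overlapped between groups, with 0 called by edgeR or DESeq2, 0 at an unadjusted p below 0.05, and log2 fold changes from -0.56 (*rsph14*, SE 0.438) to 0.19 (*rsph10b*, SE 0.289). *rsph4a* had the highest level, at 4.71, 5.17 and 4.14 CPM in siblings and 4.33, 3.77 and 4.21 CPM in mutants (-0.19, SE 0.182). *rsph9*, of the spoke head like *rsph4a*, had a value of -0.37 (SE 0.294). The wider list held 25 radial spoke, central pair and nexin link genes. Of 22 tested, edgeR called 1, lower (4.55%, against 4.49% lower among all tested genes), and DESeq2 called 2. The edgeR call was the adenylate kinase gene *ak7a* (-0.75, SE 0.168, adjusted p = 0.0209), kept in 3 of 6 fits without a library (up to 0.0831). The list's median log2 fold change was -0.25. All mutant libraries lay below all sibling libraries for 7 of the 22 genes (31.8%, against 15.4% of all tested genes) and above them for 0. The list summed to 83 to 93.9 CPM in siblings and 71.2 to 79.5 CPM in mutants, without overlap.

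Family sums were lower in every mutant library for the IFT, BBS and assembly factor genes and higher for the tektins. The IFT genes summed to 149, 134 and 136 CPM in siblings and 125, 129 and 121 CPM in mutants, and the BBS genes to 27.6, 25.8 and 25.1 CPM against 23.1, 22.6 and 23.0 CPM, each without overlap and lower in mutants. The CFAP, dynein arm and RSPH sums overlapped between groups, whereas the assembly factors summed to 6.68, 5.57 and 6.34 CPM against 4.97, 5.08 and 4.94 CPM. The means of this sum were 6.2 and 5 CPM. Within it the uncalled *dnaaf2*, whose counts may hold reads of *ppp1r21*, had means of 1.94 and 1.11 CPM, and *dnaaf1* of 1.75 and 1.76 CPM. All 68 genes together came to 270 to 293 CPM in siblings and 262 to 273 CPM in mutants, which overlapped.

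**Figure D5:**
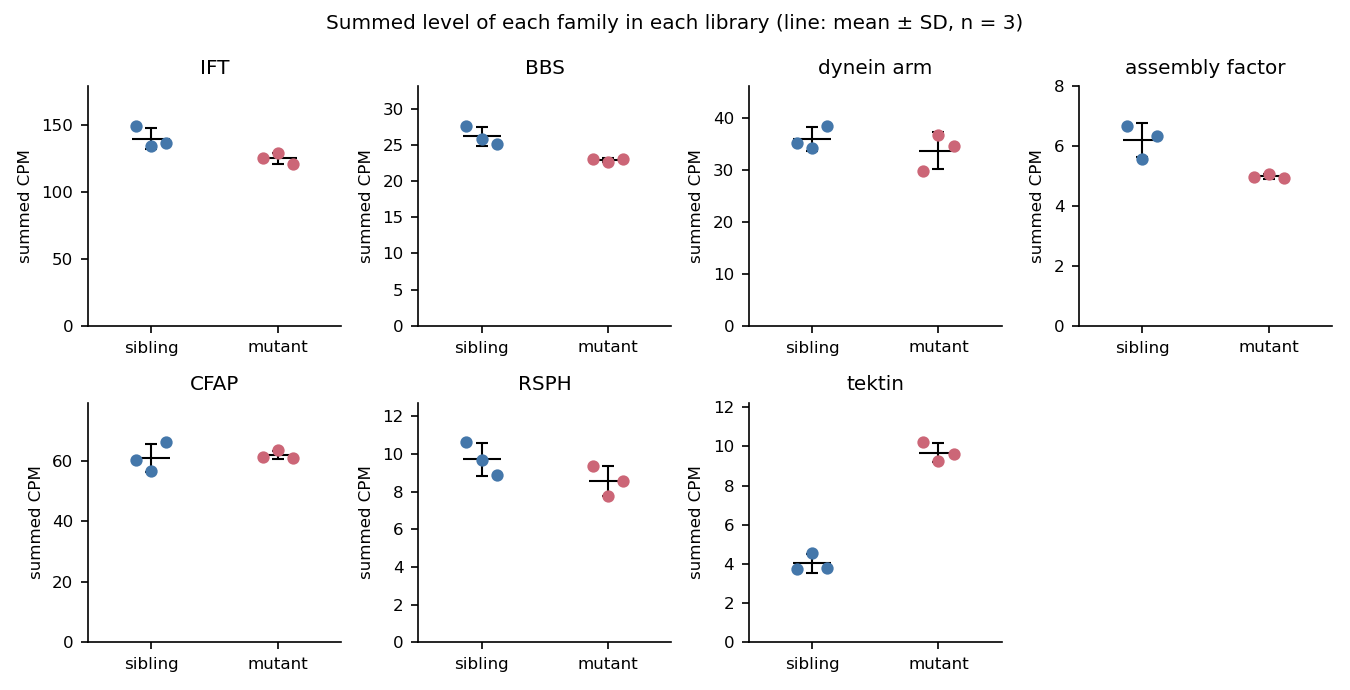
Summed CPM (y axis, from 0) of each of the 7 families in each of the 3 sibling and 3 mutant libraries; the bars give the mean and SD. The tektin sum is 4.04 in siblings and 9.68 in mutants, and the IFT sum is 140 and 125.

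The transition zone, the gate at the base of the cilium, was described by a list of 30 genes. Of 26 tested, 1 rose and 4 fell (19.2% called, against 10.1% of all tested genes), with a median log2 fold change of -0.29 against -0.00 over all genes. The gene that rose was *tmem67*, a membrane receptor of the gate (0.53, SE 0.102, adjusted p = 0.0105). Those that fell were *cspp1b* (-0.71, SE 0.12, adjusted p = 0.00558), *b9d1* (-0.80, SE 0.168, adjusted p = 0.0162), *rpgrip1l* (-0.89, SE 0.198, adjusted p = 0.0208) and *invs* (-0.84, SE 0.194, adjusted p = 0.0244), of which *invs* encodes inversin, a protein of the compartment above the gate. The *cspp1b* call held without any library, and the others were lost without mutant replicate 3 and at least 1 sibling library (adjusted p up to 0.0675 for *tmem67*, 0.0832 for *b9d1*, 0.0882 for *rpgrip1l* and 0.0935 for *invs*).

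Of 21 listed regulators of ciliogenesis, 16 were tested, of which 2 rose and none fell by edgeR. This is 12.5%, near the 10.1% of all tested genes. The median log2 fold change was 0.25, with 13 of the 16 values above 0, against 10795 of 21876 over all genes. The genes that rose were *rfx7a*, from 15.6, 16.8 and 17.4 to 23.1, 26.6 and 22.8 CPM (0.54, SE 0.106, adjusted p = 0.0111), and *rfx7b* (0.34, SE 0.0755, adjusted p = 0.0204), widely expressed members of the Rfx family. Their calls were lost without sibling replicate 1 (*rfx7a*, adjusted p = 0.0561) or in 3 of 6 fits (*rfx7b*, up to 0.0889). *foxj1a*, the main switch of motile cilia in zebrafish, was at 15.4, 13.1 and 14.3 CPM in siblings and 14.0, 13.9 and 11.8 CPM in mutants (-0.11, SE 0.124, adjusted p = 0.638), with overlap. *foxj1b* (0.38, SE 0.222, adjusted p = 0.326) and *rfx2* (0.25, SE 0.099, adjusted p = 0.145) had all mutants above all siblings but did not pass. They were among 7 of the 16 tested regulators with that order (43.8%, against 15.2% of all tested genes). The reverse order was found for 0 (against 15.4%). DESeq2 called 3 regulators, with *rfx5* added. The list summed to 169 to 186 CPM in siblings and 206 to 225 CPM in mutants, without overlap.

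Markers of the ciliated tissues were counted in the same libraries. Of 16 tested pronephros genes, *cdh17* rose (0.32, adjusted p = 0.027) and *lhx1a* fell (-0.61, adjusted p = 0.0442). The 18 listed genes summed to 465 to 486 CPM in siblings and 499 to 525 CPM in mutants, without overlap. Floor plate and central canal genes had 0 calls by edgeR or DESeq2 among 15 tested, 1 at an unadjusted p below 0.05, and summed to 198 to 220 CPM and 198 to 221 CPM. Of 12 tested lateral line and hair cell genes, *s100t* fell (-1.01, adjusted p = 0.00308), with sums of 259 to 287 CPM and 261 to 286 CPM. The 14 listed spinal cord and neuron genes summed to 1143 to 1475 CPM in siblings and 1014 to 1141 CPM in mutants, without overlap, and *tuba1a* (-0.53, adjusted p = 0.0188) and *sox3* (-0.54, adjusted p = 0.0291) fell. The IFT and BBS sums were likewise lower in mutants as a group, and the part of this list in them was not tested. Muscle genes had 0 calls by edgeR or DESeq2 among 14 tested, 2 at an unadjusted p below 0.05. Of 9 tested epidermis genes *icn* rose (0.43, adjusted p = 0.0337), and among the head genes *atoh7* fell (-2.26, adjusted p = 0.0301). The share called by edgeR was 12.5% for pronephros, 8.33% for lateral line, 15.4% for spinal cord, 11.1% for epidermis and 11.8% for head genes. These shares lie near the 10.1% of all tested genes, while the floor plate and muscle lists stood at 0%. For the spinal cord list all calls were lower, and 4.49% of all tested genes were called lower. Of its 13 tested genes, 11 had values below 0 and 2 above, with a median of -0.17. Of the calls named from these tissue lists, that of *s100t* held without any library and the others were lost in at least 3 of 6 such fits (adjusted p up to 0.175).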

How the data were processed

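RNA-seq of 3 *prpf31*-/- and 3 sibling libraries was analysed from the authors' files of whole-number counts per gene. According to the submitters' processing notes, the tools were CASAVA 1.8, HISAT2 2.0.5 and featureCounts 1.5.0-p3, with GRCz11. The authors also deposited FPKM per gene, which are the counts over gene length and a library total of 0.935 to 1.045 times the summed counts. The test was run in edgeR 4.0.16 under R 4.3.3 (filterByExpr, TMM factors, quasi-likelihood test of mutants against siblings, Benjamini-Hochberg adjustment over 21876 genes, threshold 0.05). CPM use the TMM factors, FPKM are the deposited values, and all fold changes are mutant over sibling. The libraries held 21809870 to 23789933 counts, and genes varied between replicates with a coefficient of 15.5% beyond counting error. Tested on simulated data for this comparison with 21876 genes, of which 200 were changed, the procedure found 75% of genes at a log2 change of 1 and 99% at 2, with 4 false calls among 178. The changed genes were drawn only from those with a mean above 1 CPM, and each gene was given the spread typical of its level. These shares therefore do not carry over to members with lower levels.

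The members and the 13 gene lists were chosen with earlier results of these data known. Named are all called members, the 2 members with the highest mean sibling FPKM of each family, all tektins, up to 4 called genes with the smallest adjusted p of each list, and *prpf31*; *ttc26*, *dync2h1*, *wdr19*, *wdr60*, *kif17*, *kif3a*, regulators, neighbouring genes, *stm* and other uncalled members were added once their values had been seen. The annotated symbol of CABZ01072607.1 came from a gene name table. Of the members, 22 overlap a gene on the opposite strand. Alternatives were RLE and upper-quartile factors, DESeq2 1.42.0, no filter, a minimum of 50 counts in 3 libraries, a block for the replicate number, limma 3.58.1 on log2(FPKM + 1) or log2(FPKM + 0.1) with FPKM of at least 1 in 3 libraries or without a filter, and leaving out each library. Promoter sequences and the splicing of these genes were not analysed here, and 1 gene of a tissue list is not reported here. Figures were drawn with matplotlib 3.10.9 in Python 3.11.15.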

Additional observations from a re-analysis of the deposited data

How the results depend on the processing

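The counts of called members (4 higher, 3 lower) were the same genes with RLE factors, upper-quartile factors and no filter. Among all tested genes, leaving out single libraries gave 600 to 1215 higher and 332 to 990 lower; among the members it gave 1 to 4 higher and 0 to 4 lower, for IFT genes 0 to 2 higher and 0 to 2 lower, for BBS genes 0 to 1 higher and 0 to 2 lower, and for dynein arm genes 0 to 1 higher. Without sibling replicate 2 or mutant replicate 3, *tekt3* was the only member called. DESeq2 called 8 members, 6 of them shared, dropping *bbs9* and adding *bbs2* and *dnah7*, so that dynein arm genes higher became 1. BBS genes lower became 0 with 50 counts in 3 libraries and with limma on log2(FPKM + 1) or log2(FPKM + 0.1) after the FPKM filter. In these settings *bbs9* did not pass the filter and so was not tested. With limma on log2(FPKM + 1) and no filter, 2 members were higher and 1 lower, with IFT 1 and 0, BBS 0 higher, and 537 of all genes lower. A pseudocount of 1 FPKM shrinks low genes by construction: *tekt3* was at 1.67, *ift81* at 0.54, *ift27* at 0.42 and *bbs9* at -0.28. For the other shifts the cause was not tested. No called member changed direction under these alternatives.

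The replicate numbers gave no sign of pairing the samples: same-numbered deviations correlated at -0.147, -0.226 and -0.116, and differently numbered ones at -0.065 to 0.211. The labels do not say whether same-numbered libraries share a clutch. With the replicate number as a block, 698 of all genes were higher and 455 lower, 2 members were higher (*ift81* and *tekt3*) and 0 lower, with IFT 1 and 0 and BBS 0 and 0. Outside IFT and BBS the median was 40.3 counts per library, with standard errors up to 0.581, and the part of depth in the few calls there was not tested; with 50 counts in 3 libraries, 1 of 17 (5.88%) was called.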

Other observations

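*tekt3* lies on chromosome 12 among genes with values of both signs. The nearest tested gene, *pmp22b*, 28196 bases away, was at 482, 487 and 517 CPM in siblings and 653, 566 and 608 CPM in mutants (log2 fold change 0.30, SE 0.0783, adjusted p = 0.0402). On the other side *cdc42ep4b*, 63247 bases away, fell from 64.9, 61.5 and 58.6 CPM to 40.7, 43.3 and 42.1 CPM (-0.55, SE 0.0768, adjusted p = 0.00178). Farther out, *hs3st3b1b* fell (-0.83, SE 0.174, adjusted p = 0.0157), and *cox10* and *sdk2b* had values of 0.01 and 0.14 that did not pass. These neighbours were named after their values were seen.

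*ift80* and *smc4*, which encodes a condensin subunit, start 386 bases apart on opposite strands. *smc4* fell from 96.3, 79.2 and 83.0 CPM to 58.6, 69.8 and 69.3 CPM (-0.39, SE 0.101, adjusted p = 0.0386), so both genes of the pair were lower in mutants. Beside *ift52*, by contrast, *srsf6b*, a splicing factor gene 2232 bases away, rose from 136, 141 and 123 CPM to 190, 173 and 185 CPM (0.46, SE 0.0785, adjusted p = 0.00579) while *ift52* fell.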
